A study of Homo sapiens with 36 samples.

Results

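The transcriptomes of LNCaP cells given atirmociclib or AU2-94 at an equal dose of 2 µM for 24 h were set against each other directly. LNCaP is an established androgen-sensitive human prostate cancer line. Both agents inhibit cyclin-dependent kinase 4 (CDK4), and the comparison asks which transcripts differ between CDK4 inhibitors given at the same dose and time. The contrast holds 6 of the 36 libraries of the series, chosen by their labels alone: 3 biological replicates with atirmociclib 2 µM and 3 with AU2-94 2 µM, both at 24 h. The whole series has 12 groups of 3 libraries, 6 for each of 2 times (24 h and 72 h). Each time has a vehicle group, atirmociclib or AU2-94 at a dose of 1 µM or 2 µM, and 2 µM ribociclib. The study describes ribociclib as a dual CDK4/6 inhibitor and the other 2 agents as CDK4-selective. The 3 vehicle libraries of 24 h serve as a reference level only, and their labels also carry a dose of 2 µM. All wells held the same parental line, plated 24 h before the agents were added (fewer cells for 72 h than for 24 h), and total RNA was sequenced. Every library is bulk RNA of 1 cell line, so fewer cells in a phase of the cycle and less transcript per cell cannot be told apart.

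CDK4 and CDK6, bound to D-type cyclins, phosphorylate the retinoblastoma protein RB, which then releases E2F transcription factors. E2F factors switch on the genes of DNA replication, and later factors such as B-MYB and FOXM1 switch on those of mitosis. Replication-dependent histones are made in S phase, when new DNA is packed into chromatin. Inhibitors of CDK4 therefore lower these transcripts in cells with intact RB, and any further difference between such inhibitors may lie inside or outside this programme. A negative log2 difference below means a lower level with atirmociclib than with AU2-94. Levels are the deposited normalised counts, which compare libraries for 1 gene but not genes of different length.

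The 6 libraries had totals of 21109729 to 22054249 normalised counts, with 19708 to 21405 genes above 0. Of the marker genes of LNCaP and luminal prostate cells, 11 of 11 were expressed, with a mean level of 13.4 to 13.5 on the log2(normalised count + 1) scale in each of the 6 libraries, while 7 of 15 markers of basal, stromal or blood cells in the table passed the filter on low values, with summed normalised counts of 893 to 1042 against 162183 to 173408 for the luminal markers. Replicate 3 of atirmociclib stood apart. Its correlation with the AU2-94 libraries across genes was 0.976 to 0.978, against 0.979 to 0.981 for the other 2 atirmociclib libraries. Hypoxia-inducible genes were low in it: the mean level of 59 such genes was 10.1, 9.72 and 8.999 in the 3 atirmociclib libraries, 10.1, 10.01 and 9.74 with AU2-94 and 8.81, 9.13 and 8.88 with vehicle. Without it, 502 genes were higher and 505 lower by the adjusted p alone, and counts and values that it moved most are given both ways.

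Among differences of at least 2-fold, lower transcripts with atirmociclib outnumbered higher ones. By the adjusted p alone this was not so. Of 16137 genes tested, 148 were at least 2-fold lower with atirmociclib (0.917%) and 6 were at least 2-fold higher (0.0372%) at an adjusted p of at most 0.05 (limma, Benjamini-Hochberg), the call used here. By the adjusted p alone, 696 were lower (4.31%) and 827 higher (5.12%), and the median difference over all genes was -0.0088. The 148 lower genes held 49 of the 329 tested members of 3 lists of cell-cycle genes (DNA replication and S phase, G2 and mitosis, replication-dependent histones) and 99 genes outside them. The 6 higher genes lay outside those lists. Below, outside the cell cycle means outside these 3 lists, which may leave out cell-cycle genes. Genes named for the largest differences had to have no overlap between the 2 treated groups, as in 145 of the 148 lower genes. With quantile normalisation the split was 77 lower and 14 higher. With all libraries scaled to equal totals, 930 genes were lower and 489 higher by the adjusted p alone, so the balance of small differences depended on the scaling.

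**Figure D1:**
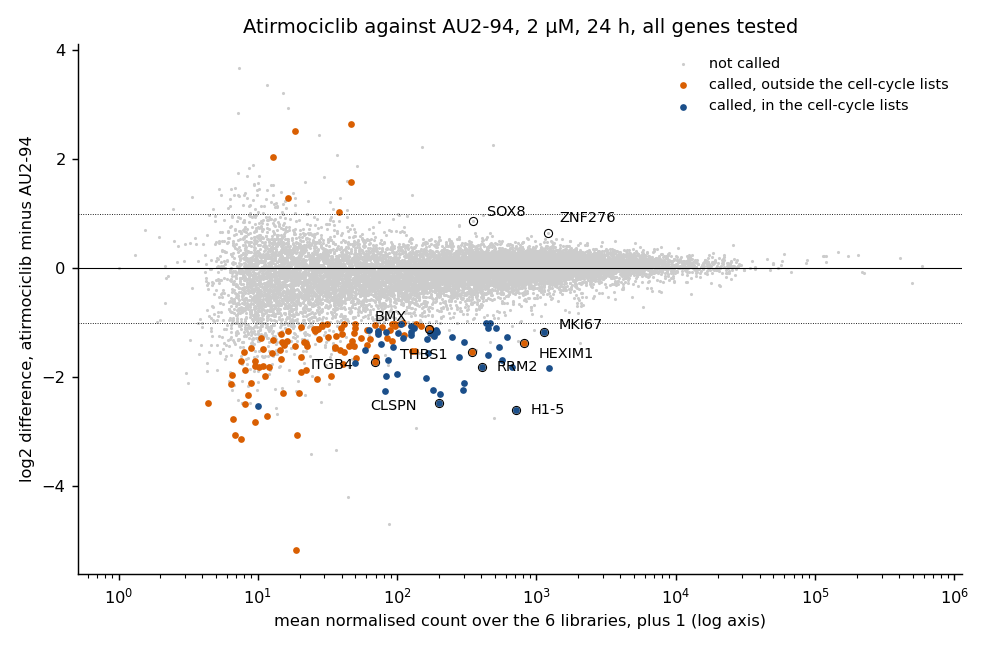
Log2 difference between atirmociclib and AU2-94 at 2 µM and 24 h (y axis) against the mean normalised count over the 6 libraries (x axis, log scale) for the 16137 genes tested. Called genes are coloured by whether they are in the cell-cycle lists, and dotted lines mark a 2-fold difference. Below 0 lie 148 called genes and above it 6, and of the 75 lower ones with a mean of at least 50, 47 are in the cell-cycle lists.

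Outside the cell cycle the gene with the smallest p was HEXIM1 (ENSG00000186834), which encodes the protein that holds the elongation kinase P-TEFb, a pair of CDK9 and cyclin T, inactive in the 7SK ribonucleoprotein. The gene lies on chromosome 17, 45148475 to 45152099, plus strand (GRCh38). Its normalised counts were 427, 441 and 497 with atirmociclib, 1177, 1210.1 and 1156 with AU2-94 and 1331, 1201 and 1356 with vehicle. AU2-94 and vehicle overlapped, and all atirmociclib libraries lay below both. The means were 455 ± 37.1 and 1181 ± 27.2 (SD, n = 3), a difference of -1.38 ± 0.064 (SE) on the log2 scale, 2.599-fold, with a limma adjusted p of 2.91e-10. At 1 µM the difference was -0.94 (limma adjusted p = 1.48e-08) and at 2 µM after 72 h it was -0.99 (adjusted p = 3.38e-13). Exons of HEXIM2-AS1 on the opposite strand cover 14.3% of the HEXIM1 exon bases, and that gene stood at a mean of 328 with atirmociclib and 333 with AU2-94.

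HEXIM1 was 1 of 41 tested genes of P-TEFb, 7SK and transcription elongation, of which 3 were lower (7.32%) and 2 higher (4.88%) by the adjusted p, near the 4.31% and 5.12% over all genes. POLR2A, the largest subunit of RNA polymerase II, was lower (3465, 3808 and 3597 against 4813, 4755 and 4614; log2 difference -0.38 ± 0.044 (SE), limma adjusted p = 2.81e-05). SUPT6H, an elongation factor and histone chaperone, was higher (5049, 5296 and 5005 against 4539, 4145 and 4190.3; 0.25 ± 0.049 (SE), limma adjusted p = 0.00294). CDK9 itself differed by 0.25 (95% interval 0.038 to 0.46, adjusted p = 0.133), CCNT1, the cyclin T1 gene, by 0.23 (0.074 to 0.38, adjusted p = 0.0585) and CDK7 of the CDK-activating kinase by 0.30 (0.077 to 0.53, adjusted p = 0.0850), none of which passed the limma test. Of the 17 alternatives, CDK9 passed in 1, without AU2-94 replicate 2 (0.36).

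THBS1, which encodes the secreted matrix protein thrombospondin-1 (chromosome 15, 39581079 to 39599466, plus strand), stood at 201, 154 and 161 with atirmociclib and 396, 731 and 423 with AU2-94, against 108, 60.99 and 138 with vehicle. All AU2-94 libraries were above all atirmociclib libraries, as the naming rule required, and all atirmociclib libraries were above all vehicle libraries. The difference was -1.53 ± 0.26 (SE) (2.90-fold, limma adjusted p = 0.00117). COL9A2, the alpha 2 chain of collagen IX, was at 66.5, 75.02 and 54.1 against 198, 142 and 127, with vehicle at 99.5, 113 and 134, which overlapped AU2-94 and lay above atirmociclib (-1.23 ± 0.21 (SE), limma adjusted p = 0.00106). CHST15, a chondroitin sulfotransferase, was at 67.3, 45.6 and 42.6 against 128, 113 and 150.1, with vehicle (101, 88.4 and 161) overlapping AU2-94 (-1.33 ± 0.26 (SE), adjusted p = 0.00337). At 72 h the CHST15 difference was -0.16, and its change with time passed the test. At 1 µM and 24 h its difference was 0.10 (limma adjusted p = 0.895), with means of 69.4 with atirmociclib and 63.4 with AU2-94. Ribociclib at 2 µM and 24 h had a CHST15 mean of 43.9.

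The calls of ITGB4 and ANGPT2 rested on single libraries. ITGB4, the beta 4 integrin chain that binds laminin, was at 32.2, 28.1 and 23.3 with atirmociclib and 139, 152 and 38.4 with AU2-94, where replicate 3 lay near the atirmociclib range (-1.72 ± 0.43 (SE), limma adjusted p = 0.0157). It passed the adjusted p in 3 of 6 fits that left out 1 library, and was lost without atirmociclib replicate 3 (-1.60) and without AU2-94 replicate 1 or 2, with a range of -2.35 to -1.37. ANGPT2, a ligand of the endothelial receptor TIE2, was at 104, 115 and 20.5 against 251, 158 and 149 (-1.51 ± 0.45 (SE), adjusted p = 0.0411). Its low value was in the atirmociclib library with low hypoxia-inducible genes, and without that library the difference was -0.72 and no longer called. Without any 1 of the AU2-94 libraries it was also lost, and the range over the 6 fits was -1.94 to -0.72.

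Among genes of signalling, PLEKHG4, a guanine nucleotide exchange factor gene, was at 49.6, 75.7 and 69.7 with atirmociclib, 147, 239 and 177 with AU2-94 and 131, 157 and 84.9 with vehicle (-1.51 ± 0.33 (SE), limma adjusted p = 0.00752). The vehicle mean lay between those of the 2 treated groups, whose lack of overlap the naming rule required, and vehicle overlapped AU2-94. OR51E1, an olfactory receptor gene expressed in prostate, was at 133, 133 and 66.1 against 247, 249 and 248, both above vehicle at 35.1, 28.5 and 20.3 (-1.23 ± 0.23 (SE), adjusted p = 0.00285). Its lowest treated value was again in atirmociclib replicate 3, and without it the difference was -0.89, still past the adjusted p. BMX, a non-receptor tyrosine kinase of the TEC family (chromosome X, 15464246 to 15556529, plus strand), was outside the rule for named genes and is named because it also passed at 1 µM. It stood at 93.8, 138 and 91.99 against 201, 248 and 239, with vehicle lower at 36.9, 45.2 and 51.7 (-1.10 ± 0.17 (SE), limma adjusted p = 4.72e-04).

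PARP14, an ADP-ribosyltransferase induced by interferon, was at 59.2, 45.6 and 39.2 with atirmociclib, close to vehicle (49.2, 49.5 and 55.2), and at 161, 95.8 and 99.8 with AU2-94 (-1.27 ± 0.31 (SE), limma adjusted p = 0.0146). It was lost without atirmociclib replicate 3 (-1.14) and without AU2-94 replicate 1, with a range of -1.43 to -1.03. CBLN3, a secreted cerebellin, was at 41.4, 21.6 and 31.4 against 73.8, 82.4 and 70.7 (-1.28 ± 0.23 (SE), adjusted p = 0.00176), and KHNYN on the opposite strand shares 11.7% of its exon bases and stood at a mean of 1127 with atirmociclib and 1247 with AU2-94. ANKRD34A, an ankyrin repeat gene, was at 34.2, 40.6 and 28.7 against 53.6, 102 and 115 (-1.30 ± 0.29 (SE), adjusted p = 0.00776). WDR76, a WD repeat gene in none of the cell-cycle lists, was at 23.9, 50.7 and 28.6 against 98.1, 84.9 and 132, both below vehicle at 508, 566 and 403 (-1.63 ± 0.24 (SE), adjusted p = 3.01e-04). In WDR76 all vehicle libraries lay above both treated groups, and atirmociclib was lowest.

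Genes higher with atirmociclib differed by less than 2-fold wherever they were well expressed. The 6 called genes had mean normalised counts under 50. They included CTNNA3, an alpha catenin gene, at 139, 25.6 and 76.5 against 18.3, 3.34 and 12.9, and PRLR, the prolactin receptor gene, at 6.09, 22.7 and 67.1 against 2.597, 3.37 and 2.93, both with a wide spread among the atirmociclib libraries and chosen for naming after their values were seen. Only 1 of the 6 leave-one-out fits kept PRLR past the adjusted p, and 4 kept CTNNA3, with ranges of 1.71 to 3.35 and 2.01 to 3.31. CTNNA3 was lost without atirmociclib replicate 1 and without AU2-94 replicate 2. The rule therefore took the 12 largest differences past the adjusted p alone among genes with a mean of at least 50.

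SOX8, a transcription factor of the SRY-box family (chromosome 16, 981770 to 986979, plus strand), had the smallest p of the 12. It was at 446, 459 and 446 with atirmociclib, 252, 264 and 228 with AU2-94 and 176, 179 and 168 with vehicle (0.86 ± 0.10 (SE), 1.82-fold, limma adjusted p = 2.29e-05). All vehicle libraries lay below both treated groups. ACTRT3, an actin-related gene, followed the same order, at 310.0, 380.5 and 367 with atirmociclib against 208, 194 and 209 with AU2-94, and 101, 80.6 and 106 with vehicle (0.78 ± 0.14 (SE), limma adjusted p = 0.00166). OPLAH, the 5-oxoprolinase of glutathione turnover, was at 1165, 1149.5 and 985 against 723, 764 and 695, with vehicle near AU2-94 at 797, 763 and 769 (0.59 ± 0.079 (SE), adjusted p = 1.26e-04). UGT2B11, a glucuronidating enzyme gene, was at 107, 106 and 108 against 76.6, 70.03 and 51.5, both far below vehicle at 1573, 1327 and 1229.7 (0.71 ± 0.15 (SE), adjusted p = 0.00741).

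For STXBP4, a syntaxin-binding protein gene, AU2-94 was the low group: 343, 276 and 221 against 491, 527 and 626 with atirmociclib and 585, 499 and 401 with vehicle (0.98 ± 0.20 (SE), limma adjusted p = 0.00375). Stretches of its transcripts match 15 other genes nearly exactly (at least 100 bases at 98% identity or more), so its count is uncertain. TNFSF15, a ligand of the tumour necrosis factor family, was likewise lowest with AU2-94, at 97.1, 66.8 and 85.4 against 127, 145 and 148 with atirmociclib and 142, 139 and 108 with vehicle (0.76 ± 0.16 (SE), adjusted p = 0.00634). ABCC10, a drug efflux transporter gene, was at 534, 576 and 585 against 347, 326 and 405 (0.66 ± 0.10 (SE), adjusted p = 5.91e-04). ZNF276, a zinc finger gene, was at 1509, 1398 and 1542 against 1021, 954 and 851 (0.66 ± 0.090 (SE), adjusted p = 1.45e-04), and FANCA shares 32.3% of its exon bases on the opposite strand, with means of 336 and 452. The others were ZNF578 (0.90), PLPBP (0.64), ZNF728 (0.61) and HYCC2 (0.60), which lost the adjusted p in 4, 3, 5 and 1 of the 6 fits that left out a library, HYCC2 without atirmociclib replicate 3 (0.43). With the replicate number as a block, ZNF578 (limma adjusted p = 0.0616) and ZNF728 (adjusted p = 0.0532) no longer passed.

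**Figure D2:**
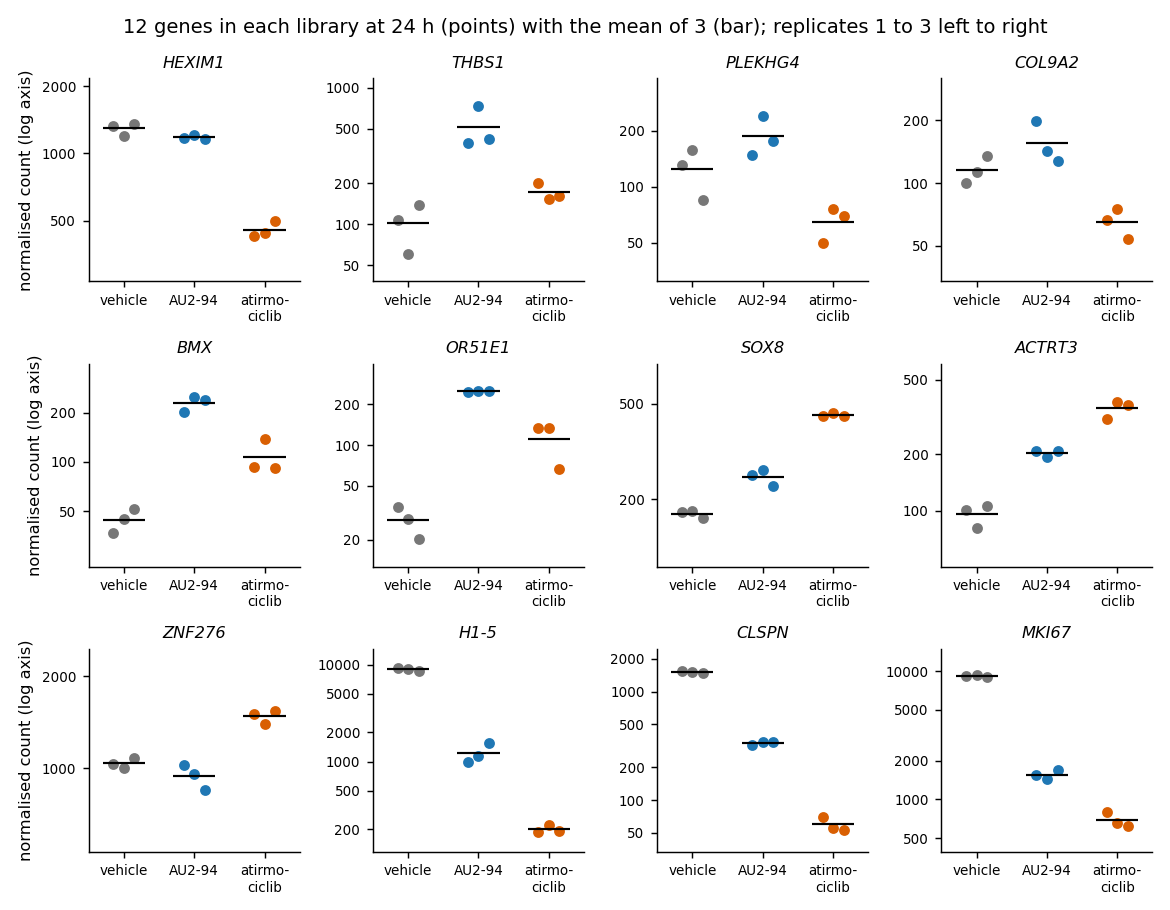
Normalised counts of 12 genes (y axes, log scale) in each of the 3 vehicle, 3 AU2-94 2 µM and 3 atirmociclib 2 µM libraries of 24 h, as points in the order of the replicate numbers, with bars at the means. For HEXIM1 and ZNF276 the AU2-94 libraries sit near vehicle and the atirmociclib libraries apart from both, whereas for H1-5, CLSPN and MKI67 both treated groups lie far below vehicle, with atirmociclib lowest.

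In the 1 µM libraries the cell-cycle genes passed again and few of the others did. Those libraries did not enter the 2 µM difference. They did share its filter and its estimate of the spread, so the 2 tests are not independent. Of the 49 called genes in the cell-cycle lists, 49 were lower with atirmociclib at 1 µM and 49 passed the adjusted p there, against a background of 3.16% of all genes lower at 1 µM. With the 2-fold limit as well, 48 were called (background 0.930%). The difference was larger at 1 µM than at 2 µM for 46 of them, with a median of -1.97 against -1.34. Of the 99 lower genes outside the lists, 80 had the same sign at 1 µM and 12 passed (12.1%), with a median of -0.42 against -1.41. The 2 sets differed in level: 47 of the 49 had a mean of at least 50, against 28 of the 99. In 8 of the 99 all atirmociclib libraries at 2 µM were at or under 3 counts. The parts of low level and of choice by size in these shares were not tested. None of the 6 higher genes passed at 1 µM, where the background was 1.48%. No gene had a change of the contrast between doses of 2-fold or more past the adjusted p, while 1537 of 16137 had an unadjusted p under 0.05 (limma), so a missing call at 1 µM does not show that the doses differed. Those past the adjusted p alone numbered 7 (0.0434%), each with a higher value of the contrast at 2 µM than at 1 µM: MYBL2 (-1.56 at 1 µM and -0.58 at 2 µM), TYMS (-1.52 and -0.65), NUSAP1 (-1.998 and -1.10), TPX2 (-0.87 and -0.35), TUBA1B (-0.36 and 0.12), AHCTF1 (-0.23 and 0.29) and ABCC10 (-0.22 and 0.66).

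The 12 genes outside the lists that passed at both doses were HEXIM1, BMX, WDR76, MND1, FAM72C, NEURL1B, OSBPL10, TTC23L, DLX3, MIR924HG, TCHH and GRM2. MND1, a gene of meiotic recombination, was at 25.8, 23.4 and 13.9 with atirmociclib, 49.3, 49.5 and 48.7 with AU2-94 and 159.9, 156 and 168 with vehicle (-1.48 at 1 µM, limma adjusted p = 0.00104). FAM72C was at 13.2, 23.2 and 26.3 against 59.7, 56.2 and 65.1, with vehicle at 341, 325 and 342, and its count is uncertain because FAM72A, FAM72B and FAM72D share stretches of at least 2366 bases with it at 99.4% to 99.8% identity. NEURL1B, a ubiquitin ligase gene of the Notch pathway, was at 76.4, 72.5 and 42.6 against 125, 116 and 137, with vehicle at 389, 389.6 and 438. In these 3 genes, vehicle was highest and atirmociclib lowest. TTC23L (26.3, 15.8 and 15.5 against 59.97, 39.1 and 68.96, vehicle 14.5, 12.7 and 17.1) and DLX3, a homeobox gene (7.41, 8.93 and 3.97 against 23.1, 21.5 and 15.99, vehicle 8.47, 9.01 and 7.30), were highest with AU2-94. DLX3 was lost at 2 µM without atirmociclib replicate 3 (-1.20) and without AU2-94 replicate 1. THBS1 was at -0.67 at 1 µM without passing (limma adjusted p = 0.179).

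**Figure D3:**
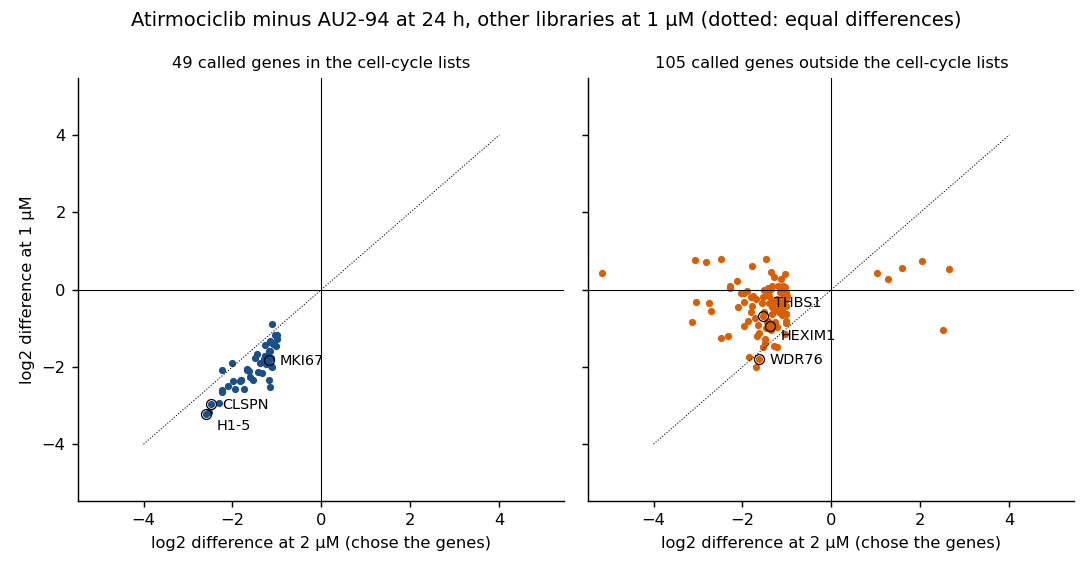
Log2 difference between atirmociclib and AU2-94 at 1 µM (y axis) against that at 2 µM (x axis), both at 24 h, for the 49 called genes in the cell-cycle lists (left) and the 105 called genes outside them (right). The 2 µM values chose the genes. The 1 µM libraries are others, but both doses share 1 filter and 1 estimate of the spread. All 49 cell-cycle genes lie below 0 at 1 µM, and 46 below the dotted line of equal differences, whereas most genes outside lie nearer to 0 at 1 µM, with 12 of the 99 lower ones past the adjusted p.

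At 72 h of 2 µM, 48 of the 49 cell-cycle genes were lower past the adjusted p and 22 of the 99 lower genes outside, against a background of 8.68% of genes lower at that time (limma, all 36 libraries in 1 fit). With the 2-fold limit these were 36 and 14 (background 1.65%). The change from 24 h to 72 h itself passed the adjusted p for 10 of the 49 and 12 of the 99, against 2.94% of all genes with an upward and 1.58% with a downward change. None of the 6 higher genes was higher past the adjusted p at 72 h, and the change with time passed for 2 of them. Of the 516 genes outside the lists that were lower by the adjusted p alone at 24 h, 119 passed in the same direction at 1 µM (23.1%) and 209 at 72 h (40.5%). Of the 821 such higher genes, 134 passed at 1 µM (16.3%) and 458 at 72 h (55.8%), where the background of higher genes was 11.6%. The 180 lower genes of the cell-cycle lists passed at 1 µM in 172 cases and at 72 h in 165.

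Most cell-cycle genes that differed were lower with atirmociclib (180 lower and 6 higher of 329 tested by the adjusted p). Of 51 tested replication-dependent histone genes, 41 were lower with atirmociclib and none higher, with a median difference of -0.92 against -0.0088 over all genes. H1-5, a linker histone gene (chromosome 6, 27866792 to 27867588, minus strand), was at 188, 219 and 192 with atirmociclib, 996, 1140.2 and 1562 with AU2-94 and 9112, 8968 and 8635 with vehicle. The difference of -2.60 ± 0.12 (SE) was 6.04-fold (limma adjusted p = 2.91e-10). The H2B genes H2BC14 (-2.30 ± 0.17 (SE)), H2BC11 (-2.24 ± 0.21 (SE)) and H2BC17 (-2.23 ± 0.11 (SE)) were lower to a like degree. H3C15, an H3 gene, had a difference of -1.82, with a stretch of 518 bases identical to H3C14. In all of these, the vehicle libraries lay above both treated groups, and atirmociclib was lowest.

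Of 124 tested genes of DNA replication and S phase, 71 were lower and 3 higher, with a median of -0.46. CLSPN, which encodes the replication checkpoint adaptor claspin (chromosome 1, 35720218 to 35769978, minus strand), was at 70.3, 55.8 and 53.5 with atirmociclib, 321, 342 and 341 with AU2-94 and 1555, 1530.3 and 1498 with vehicle (-2.47 ± 0.14 (SE), 5.55-fold, limma adjusted p = 2.60e-09). CCNE2, the cyclin E2 gene, was at 31.7, 26.8 and 22.8 against 125, 99.8 and 179 (-2.24 ± 0.25 (SE), adjusted p = 2.07e-05), and exons of INTS8 on the opposite strand cover 37.0% of its exon bases at means of 1041 and 1032. RRM2, the small subunit of ribonucleotide reductase, was at 204, 211 and 131 against 539.6, 631 and 724 (-1.81). FAM111B (-1.68) and MCM2 of the replicative helicase (-0.76) had small p-values at smaller differences. E2F1 itself differed by -0.66 ± 0.086 (SE) (adjusted p = 1.06e-04).

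Of 157 tested genes of G2 and mitosis, 69 were lower and 3 higher, with a median of -0.34. MKI67, the gene of the proliferation antigen Ki-67, was at 794, 657 and 626 with atirmociclib, 1545, 1436 and 1699 with AU2-94 and 9181, 9371 and 8954 with vehicle (-1.17 ± 0.081 (SE), limma adjusted p = 4.17e-08). NUSAP1 of the spindle (-1.10), FBXO5, an inhibitor of the anaphase-promoting complex (-1.23), and CDK1 (-0.66) were also lower. FOXM1, a transcription factor of mitotic genes, did not pass the test, at 974, 840.1 and 987 against 806, 955 and 959, with vehicle at 3447, 3589 and 3289, a difference of 0.043 (95% interval -0.12 to 0.21, adjusted p = 0.805). FOXM1 was lower with atirmociclib at 1 µM (-0.41, limma adjusted p = 0.00393) and at 72 h (-0.61, adjusted p = 2.56e-08).

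The 6 members of the cell-cycle lists that were higher with atirmociclib included PTTG1, the securin gene, at 634, 445 and 485 against 374, 386 and 409.6 and vehicle 1611, 1613 and 1669 (0.40 ± 0.10 (SE), limma adjusted p = 0.0178). TFDP1, which encodes the partner of E2F factors, was at 1417, 1293 and 1186 against 923, 1032 and 1032 (0.38 ± 0.078 (SE), adjusted p = 0.00457). CHTF18 (0.34), UBE2S (0.24) and TUBA1C (0.22) were also higher, and the count of TUBA1C is uncertain, since 331 of its bases are 99.7% identical to TUBA1B. PTTG1 was lost without atirmociclib replicate 1 and without AU2-94 replicate 1 (range 0.25 to 0.51). CHTF18, UBE2S and TUBA1C were lost in at least 4 of the 6 fits that left out a library, and UBE2S with the replicate number as a block (limma adjusted p = 0.0698). None of the 6 passed at 1 µM. At 72 h PTTG1 was lower with atirmociclib (-1.40, limma adjusted p = 2.26e-11), a reversal of direction that passed the test of the change.

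Promoter sequences of RefSeq (GRCh38.p14, 250 bases before to 50 after a gene's start, the first entry for each symbol) were searched for short motifs on both strands, as a description of lists that these data had chosen. Of the 49 lower cell-cycle genes, 40 matched the table. The E2F letters TTTGGCGC or TTTCGCGC stood in 14 of these 40 promoters (35.0%), against 239 of the 11516 matched tested genes (2.08%) and 1.18% of all 27305 promoters. Among the matched lower genes outside the lists the E2F letters were in 2 of 71 (2.82%). The TATA box letters TATAAA stood in 13 of 15 matched lower histone genes (86.7%), against 5.95% of tested genes and 12.0% of all promoters. The cyclic AMP response letters TGACGTCA were in 9 of the 40 (22.5%, against 3.25% and 1.98%), 5 of 15 histone promoters and 4 of 25 others. Histone H2A and H2B genes often lie head to head, so a motif can be read from both genes of a pair.

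The cell cycle homology letters TTTGAAA or TTCGAAA were in 1 of the 40 promoters and in 4.12% of tested genes (6.78% of all promoters), and the E-box CACGTG in none of the 40, against 10.05% (7.43%). Of the 12 named lower genes outside the cell cycle, 9 matched. They held the hypoxia response core ACGTG or GCGTG in 4, the TATA box in 1 and the other motifs in none, and the core was in 62.7% of tested genes. Of the 12 named higher genes, 6 matched, with the core in 1 and the TATA box in 1.

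The 250 bases before the start are given for HEXIM1, the leading gene outside the cell cycle (chr17:45148225-45148474, plus strand), and for 3 lower cell-cycle genes whose windows hold E2F letters, the histone gene H2BC17 (chr6:27893175-27893424, plus strand), the zinc finger gene ZNF367 with a difference of -2.01 (chr9:96418371-96418620, minus strand) and the mitotic kinesin gene KIF15 with -1.10 (chr3:44761544-44761793, plus strand). Each is written 5′ to 3′ along the gene, with E2F, TATA box and cell cycle homology letters in capitals.
HEXIM1: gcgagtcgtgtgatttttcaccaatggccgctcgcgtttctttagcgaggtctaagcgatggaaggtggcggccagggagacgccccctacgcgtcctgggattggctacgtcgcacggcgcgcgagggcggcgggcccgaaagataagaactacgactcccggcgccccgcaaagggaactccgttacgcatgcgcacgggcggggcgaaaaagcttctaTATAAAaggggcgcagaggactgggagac
H2BC17: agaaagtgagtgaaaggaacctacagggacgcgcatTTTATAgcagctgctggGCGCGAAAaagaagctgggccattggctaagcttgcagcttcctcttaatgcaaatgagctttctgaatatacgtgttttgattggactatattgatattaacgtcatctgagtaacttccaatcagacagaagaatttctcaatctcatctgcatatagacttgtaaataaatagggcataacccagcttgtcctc
ZNF367: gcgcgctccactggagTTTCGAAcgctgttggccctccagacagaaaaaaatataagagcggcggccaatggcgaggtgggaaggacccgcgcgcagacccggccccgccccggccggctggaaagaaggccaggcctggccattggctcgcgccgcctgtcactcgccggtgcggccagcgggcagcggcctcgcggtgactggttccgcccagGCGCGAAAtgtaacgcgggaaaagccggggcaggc
KIF15: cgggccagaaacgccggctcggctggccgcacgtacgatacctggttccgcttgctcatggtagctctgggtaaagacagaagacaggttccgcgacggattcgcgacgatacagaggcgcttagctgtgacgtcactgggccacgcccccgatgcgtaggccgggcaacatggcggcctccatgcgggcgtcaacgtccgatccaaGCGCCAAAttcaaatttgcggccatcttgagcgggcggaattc
In HEXIM1 the capitals mark a TATA box that begins 29 bases before the start. In ZNF367 and KIF15 the E2F letters, read on the opposite strand, begin 35 and 43 bases before the start, and the first capitals of ZNF367 are the homology letters. In H2BC17 they begin 197 bases before it, beside a TATA box on the opposite strand.

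Several lists of metabolic and biosynthetic genes had more higher than lower members at 2 µM, by small amounts, and at 1 µM few members of most of them passed. Of 41 tested genes of cholesterol synthesis and SREBP targets, 17 were higher and 2 lower by the adjusted p, with a median of 0.21, against 5.12% higher over all genes. FDFT1, the squalene synthase gene, was at 4879, 5036 and 4954 against 3721, 3848 and 4142 (0.35 ± 0.050 (SE), limma adjusted p = 2.39e-04). ABCG1, a cholesterol efflux transporter gene, was lower at 107, 90.5 and 73.1 against 168, 187 and 190.1 (-1.02 ± 0.15 (SE), adjusted p = 2.45e-04). At 1 µM 9 of the 41 were higher and 1 lower, against 1.48% and 3.16% of all genes at that dose. Without atirmociclib replicate 3, 11 were higher and 2 lower, and with quantile normalisation 9 and 2.

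Of 13 mitochondrially encoded transcripts, 10 were higher (76.9%, against 5.12% of all genes), with a median of 0.22. MT-ND3, a subunit gene of complex I, had the smallest p, at 20266, 19995 and 21005 against 16340.2, 16817 and 17410.0 (0.28 ± 0.044 (SE), limma adjusted p = 5.74e-04). With quantile normalisation only 2 of the 13 were higher, at a median of 0.046, and at 1 µM none was, at a median of 0.090. The share of all normalised counts from mitochondrial genes was 7.28% to 7.70% with atirmociclib, 6.34% to 6.89% with AU2-94 and 6.45% to 6.60% with vehicle. Of 77 nuclear genes of the respiratory chain, 15 were higher and none lower (0.14), CYC1 of complex III with the smallest p (0.34 ± 0.042 (SE), limma adjusted p = 4.76e-05). Of 60 genes of ribosome biogenesis, 16 were higher and none lower (0.14), with BOP1 at 0.42, NOLC1 at 0.30 and DDX21 at 0.25. Cytosolic ribosomal proteins had 4 of 76 higher, near the background. At 1 µM none of the respiratory chain genes was higher and 1 was lower, and 5 of the 60 ribosome biogenesis genes were higher and none lower. The shares over all genes at that dose were 1.48% higher and 3.16% lower.

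Genes of the ATF4 response and amino acid supply were higher in 13 of 42 (31.0%) and lower in 1 (2.38%), against 5.12% and 4.31% of all genes. Without atirmociclib replicate 3, 7 were higher and 1 lower, and at 1 µM 1 was higher. Among the higher ones were ASNS, the asparagine synthetase gene, at 2692, 2529 and 2776 against 1803, 2006 and 1959 (0.47 ± 0.072 (SE), limma adjusted p = 4.32e-04), PSAT1 of serine synthesis (0.36) and SHMT2 of mitochondrial folate metabolism (0.35). An unnamed gene on the same strand shares 49.3% of the ASNS exon bases. At 72 h 1 of the list was higher and 15 lower, against 11.6% and 8.68% of all genes. A change with time towards lower levels with atirmociclib passed for 11 members, against 1.58% of all genes. Genes of the unfolded protein response were higher in 8 of 30 and lower in 1, with HYOU1, an ER chaperone gene, at 0.38, and heat shock genes in 6 of 20, with HSPD1 at 0.22. NRF2 targets had 6 of 21 higher, with the cystine transporter gene SLC7A11 at 0.49, and 1 lower, the ferritin light chain gene FTL at -0.36. At 1 µM the unfolded protein response had 1 higher, heat shock genes 1 higher and 1 lower, and NRF2 targets none higher and 1 lower. The shares over all genes at 1 µM were 1.48% higher and 3.16% lower. Without atirmociclib replicate 3 the heat shock and NRF2 lists each had 4 higher. With equal totals the higher and lower members numbered 11 and 3 for cholesterol, 9 and 0 for mitochondrial transcripts and 11 and 1 for the respiratory chain. They were 10 and 0 for ribosome biogenesis, 7 and 2 for ATF4 and 5 and 1 for the unfolded protein response. Heat shock had 6 and 1. NRF2 targets had 4 and 4, and with quantile normalisation 3 and 4, so their tilt depended on the scaling. Over all genes, equal totals gave 489 higher and 930 lower. At 72 h the higher and lower members numbered 14 and 5 for cholesterol, 11 and 0 for mitochondrial transcripts and 32 and 0 for the respiratory chain. They were 9 and 2 for ribosome biogenesis, 38 and 0 for ribosomal proteins and 17 and 0 for the unfolded protein response. Heat shock then had 10 and 0, and NRF2 targets 6 and 2.

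Other lists were lower or mixed. Splicing factors and nuclear RNAs had 7 of 32 lower (21.9%) and 3 higher (9.38%), against 4.31% and 5.12% over all genes. Without atirmociclib replicate 3 these were 7 and 1. The smallest p-values of the list were those of HNRNPA1 (-0.30), HNRNPA2B1 (-0.25) and HNRNPDL (-0.29). HNRNPA1 shares long stretches with HNRNPA1L2 and HNRNPA1L3. Interferon response genes had 6 of 43 lower with all libraries but 1 lower without atirmociclib replicate 3. OAS3, an antiviral sensor gene (-0.70), was among those lost (-0.55), and 1 gene was higher, the peptide transporter gene TAP2 (0.38). Of 17 ID genes and BMP or TGF-beta feedback genes, ID2 (-0.67), SMAD6 (-0.44) and BMPR2 (-0.15) were lower and none higher, with SMAD6 lost in 2 and BMPR2 in 4 of the 6 fits that left out a library. Immediate early and short-lived transcripts had 4 of 58 lower (6.90%) and 3 higher (5.17%), against 4.31% and 5.12% over all genes, and 1 lower and 1 higher without atirmociclib replicate 3. BTG1, an antiproliferative gene, was at 3799, 3878 and 3321 against 4863, 4799 and 4422 (-0.36 ± 0.062 (SE), limma adjusted p = 0.00121). BMF, a pro-apoptotic member of the BCL2 family, was the 1 of 18 that passed (-1.06; -0.92 and not called without atirmociclib replicate 3). CYP3A5, a drug-metabolising enzyme gene, was at 21.9, 30.7 and 21.2 against 70.3, 108 and 38.5 (-1.42 ± 0.33 (SE), adjusted p = 0.0103) and was lost without AU2-94 replicate 2 (-1.07).

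Among p53 targets 1 of 39 was higher (2.56%, TP53INP1 at 0.28) and none lower. Lysosome and autophagy had 2 of 41 higher (4.88%) and 1 lower, the MYC network 1 of 14 higher (7.14%), and glycolysis and pyruvate handling 3 of 29 higher (10.3%), against 5.12% of all genes. Surface antigens targeted in prostate cancer were higher in 4 of 15, with STEAP1 at 0.29, but in 1 of 15 with equal totals and in 1 without atirmociclib replicate 3. Of 10 senescence and secreted factors, LMNB1, the lamin B1 gene, was the 1 lower (-0.47), and none of 5 neuroendocrine markers passed. CYP3A5 was the 1 of 9 tested genes of AHR and xenobiotic response that passed, and UGT2B11 the 1 of 6 UGT2B enzymes.

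No difference past the test was found in CDK4, CCND1, RB1 or KLK3. CDK4, the kinase both agents inhibit, was at 2415, 2490.4 and 2315 against 2191, 2415 and 2449, a log2 difference of 0.034 (95% interval -0.082 to 0.15, limma adjusted p = 0.767), with TSPAN31 on the opposite strand over 44.3% of its exon bases. CCND1, the cyclin D1 gene, differed by 0.10 (0.0055 to 0.19, adjusted p = 0.184) and RB1 by -0.20 (-0.37 to -0.031, adjusted p = 0.132). CDK6 was variable, at 159, 51.5 and 45.3 against 44.1, 81.3 and 30.5, and its interval of -0.84 to 1.997 covers 0 and 2-fold. Of 20 genes of cyclin D, CDK4/6 and their inhibitors, 3 were lower: CDKN2C (-0.87), CDK2 (-0.32) and CDKN1B (-0.24), each lost in at least 3 of 6 fits that left out a library. With the replicate number as a block, CDK2 (limma adjusted p = 0.0621) and CDKN1B (adjusted p = 0.0534) no longer passed.

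KLK3, which encodes prostate-specific antigen, was at 32870.4, 30665 and 27660.1 against 29519, 32036 and 31369.5, a difference of -0.030 (95% interval -0.14 to 0.080, limma adjusted p = 0.789). TMPRSS2, an androgen-induced protease gene, differed by 0.17 (0.030 to 0.31) and did not pass the adjusted p. Of 4 kallikreins, KLK4 was lower (-0.23 ± 0.047 (SE), adjusted p = 0.00556). Of 98 other androgen-response genes, 12 were higher (12.2%) and 10 lower (10.2%), against 5.12% and 4.31% of all genes, and without atirmociclib replicate 3 these were 7 and 7. SAT1, a polyamine acetyltransferase gene, was at 2028, 1837 and 1724 against 2744, 2612 and 2634, above vehicle at 1419, 1429 and 1405 (-0.52 ± 0.054 (SE), limma adjusted p = 1.17e-05), and SELENOP, a secreted selenium carrier gene, was at 1841, 1802 and 1712 against 2331, 2498 and 2453 (-0.44 ± 0.058 (SE)). Among 15 prostate lineage factors, FOXA1, a pioneer factor gene, was higher (0.21), and NCOR1 (-0.24) and SPDEF (-0.19) were among the 3 lower, SPDEF being lost in 4 of the 6 fits that left out a library. MYC differed by 0.24 (0.10 to 0.37, adjusted p = 0.0248), and was lost in 4 of the 6 fits that left out a library.

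Hypoxia-inducible genes were variable among the atirmociclib libraries. Of 59 tested, 1 was lower and none higher, at a median of -0.29, and 49 had their lowest value of the 6 libraries in atirmociclib replicate 3. PLOD2, a collagen lysyl hydroxylase gene, was at 570.1, 427 and 44.7 with atirmociclib, 636, 631 and 462 with AU2-94 and 2.08, 24.1 and 13.3 with vehicle, and NDUFA4L2, a mitochondrial protein gene, at 2497, 1869 and 201 against 3059, 2968 and 1779, with vehicle at 41.1, 113 and 70.3. Both treated groups were above vehicle in each library, with that replicate nearest to it. The differences of -1.35 (adjusted p = 0.280) and -1.36 (adjusted p = 0.242) did not pass the limma test, and without atirmociclib replicate 3 they were -0.21 and -0.23. The 1 lower gene, P4HA1, a prolyl hydroxylase subunit (-0.69), was -0.36 and no longer past the adjusted p without that library, and was also lost without AU2-94 replicate 1 (range -0.91 to -0.36). At 1 µM the median of the list was 0.081, with 1 higher and none lower. Of the 99 lower genes outside the cell cycle, 46 were still called without atirmociclib replicate 3, and of the 49 in the cell-cycle lists 43 were.

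**Figure D4:**
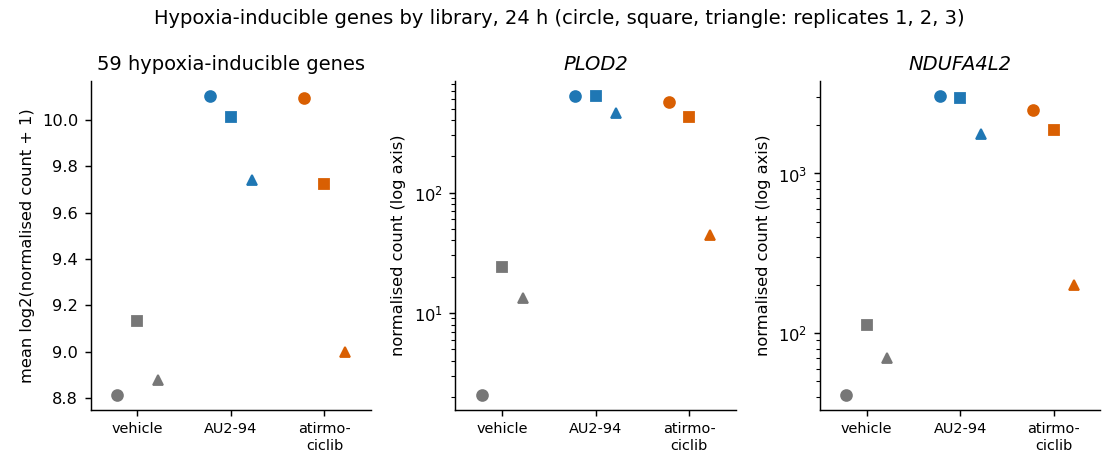
Mean log2(normalised count + 1) of 59 hypoxia-inducible genes (left) and normalised counts of PLOD2 and NDUFA4L2 (middle and right, log scale) in each vehicle, AU2-94 2 µM and atirmociclib 2 µM library of 24 h, with symbols for replicates 1 to 3. Atirmociclib replicate 3, at 8.999 in the left panel, lies near the vehicle libraries (8.81 to 9.13), while the other 5 treated libraries lie at 9.72 to 10.1.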

How the data were processed

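RNA from 36 LNCaP libraries was sequenced by the authors with the Universal Plus Total RNA-Seq kit with NuQuant (TRIzol extraction, 12 cycles of amplification). The deposited signal is 1 table of the authors' normalised counts for 29872 genes. Per the labels, reads were aligned with STAR 2.6.1d to GRCh38 and scaled with DESeq2. The annotation, the counter and the use of strand were not given in the sources used here, so antisense partners are named beside the genes they overlap. Raw depth is unknown, and totals of the normalised counts do not measure it. The scaling assumes that most genes do not change.

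Gene symbols and coordinates were matched by Ensembl ID to GENCODE 44 (29856 of 29872 genes), and near-identical copies were found with BLAST 2.17.0 (at least 100 bases at 98% identity). The test was limma (version 3.58.1, R 4.3.3) with trend on log2(normalised count + 1), over the 18 libraries of 24 h in 6 groups, for genes at 10 or more in at least 3 libraries. Benjamini-Hochberg adjustment was over all 16137 genes tested. Calls needed both an adjusted p no greater than 0.05 and a difference of 1 or more on the log2 scale, in either direction. Fold changes on this scale understate those of low genes. The contrast at 72 h and its change with time were fitted over all 36 libraries, and the change with dose over the 18 libraries of 24 h. Contrasts with vehicle were not used for calls. The fit was checked on simulated data. Some named genes are not reported here.

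Named genes were the 12 with the largest differences in each direction outside the cell-cycle lists (called first, then past the adjusted p; mean of at least 50; groups without overlap), 5 in each direction inside them, up to 3 per list by p, and a fixed set that included KLK3, CDK4, CDK9 and HEXIM1. The members, the 32 gene lists and the rules were chosen with earlier results of these data known. The labels call the replicate number a batch, so samples of the same number may be paired. The main fit did not pair them, and a replicate block was run as an alternative. Deviations from group means correlated at 0.0018 on average between samples of the same number (-0.09 to 0.11) and at -0.0009 between other samples. The replicates are described as biological. Alternatives were the pseudocount, the filter, 3 other scalings (quantile normalisation, totals made equal, and trimmed-mean TMM factors of these values), a replicate block, no trend, other sets of libraries and leaving out each library of the contrast.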

Additional observations from a re-analysis of the deposited data

Results flagged for a closer look

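The difference between atirmociclib and AU2-94 changed from 24 h to 72 h at 2 µM past the adjusted p (limma, all 36 libraries) for 32 of the 121 named genes, and these are listed because the test of the change itself passed. Over all genes 2.94% changed upwards and 1.58% downwards. Most named genes were chosen by their 24 h difference, which enters the change, so a move towards 0 is partly built in. Values are the log2 difference at 72 h minus that at 24 h. Wells for 72 h were seeded with fewer cells than those for 24 h, and the part of this in the changes was not tested. By at least 2-fold the contrast moved upwards for CHST15 (1.17), CLSPN (1.16), FAM111B (1.12), ID2 (1.02) and WIPI1 (1.12). It moved downwards by at least 2-fold for PTTG1 (-1.80), the securin gene that was higher with atirmociclib at 24 h and lower at 72 h. Among other cell-cycle genes the change was positive, a smaller deficit at 72 h, for H1-5 (0.65), H2BC14 (0.74), H3C15 (0.68), H2BC17 (0.49) and MCM2 (0.34), and negative for UBE2S (-0.89), FOXM1 (-0.65), TFDP1 (-0.61) and LMNB1 (-0.41). Outside the cell cycle the change was positive for ABCG1 (0.72), BMPR2 (0.29), CD276 (0.32), FTL (0.36), HEXIM1 (0.39), NPC1 (0.63), SAT1 (0.43), SELENOP (0.41), SMAD6 (0.47), STEAP1 (0.26), TMPRSS2 (0.40) and TP53INP1 (0.35). It was negative for ASNS (-0.77), OAS3 (-0.70), PSAT1 (-0.52), SLC7A11 (-0.75) and TOB1 (-0.40).

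The contrast changed with dose at 24 h, as the value at 2 µM minus that at 1 µM, for 2 named genes past the adjusted p, ABCC10 (0.87) and NUSAP1 (0.90). Over all genes 7 passed (0.0434%), and the 2 µM values that chose most named genes enter this change.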

How the results depend on the processing

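The 148 lower genes became 62 with a mean of at least 100 required, 77 with quantile normalisation and 83 with only the 6 libraries of the contrast fitted, and 116 to 167 when 1 library was left out. The 6 higher genes became 3 with a pseudocount of 8, 18 without the filter on low values, 0 with the mean of at least 100, 14 with quantile normalisation, 1 with only the 6 libraries and 12 with all 36, and 4 to 10 when 1 library was left out (10 without AU2-94 replicate 1). The 49 lower cell-cycle genes numbered 40 to 60 under every alternative run. Like counts can hold other members. In each of the 6 fits that left out a library, 37 of these 49, 25 of the 99 lower genes outside and 0 of the 6 higher genes stayed called. Without the filter on low values 93 lower genes outside were called, 58 of them among the 99. The 99 lower genes outside numbered 61 without AU2-94 replicate 2, 64 without AU2-94 replicate 1, 39 with the 6 libraries alone, 37 with quantile normalisation, 55 with a pseudocount of 8 and 15 with the mean of at least 100. The cause was not tested. The count of genes whose contrast changed 2-fold with dose was 0 to 2 when 1 library was left out (2 without atirmociclib replicate 2 and without AU2-94 replicate 3, 1 without atirmociclib replicate 3).

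With the replicate number as a block there were 5 higher and 143 lower genes, 60 in place of 61 of the called genes passed at 1 µM, and 85 in place of 89 genes changed 2-fold with time. Among named genes the block took 6 past the threshold (adjusted p 0.0616 for ZNF578, 0.0532 for ZNF728, 0.0698 for UBE2S, 0.0534 for CDKN1B, 0.0621 for CDK2 and 0.0610 for MPC2) and changed no other call. Of 108 named genes past the adjusted p, 67 passed in each of the 17 alternatives that could fit them. Directions reversed only for KLK3 (-0.088 to 0.036 when 1 library was left out, above 0 without atirmociclib replicate 3), FOXM1 (-0.040 to 0.12, below 0 without AU2-94 replicate 1) and CDK4 (-0.0099 with quantile normalisation, -0.0048 with equal totals, and -0.016 to 0.065 when 1 library was left out, below 0 without AU2-94 replicate 1), none past the test. Raw depth was unknown, and groups of 3 limit the precision.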
